A study of Mus musculus with 2 samples.

Results

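Transcripts of 8 genes that mark the lung bud and other embryonic epithelia were followed in 2 RNA-seq libraries of mouse hearts taken at E13.5, in mid-gestation. The first library is wild type. The other is Lmna H222P/H222P, that is, both alleles of Lmna, the gene of lamins A and C, carry the H222P missense mutation. The genes are Sftpc, Sftpb, Nkx2-1, Sox2, Shh, Epcam, Cdh1 and Cldn6. They were picked by symbol, with the difference between these libraries already known, and all 8 were found among 55348 gene entries. Both libraries came from strain 129sv, were labelled heart and total RNA, and no treatment of the animals is stated. The labels do not say how many embryos were pooled for either library. The H222P allele is the only stated difference between the groups, and it is present in every cell of the mutant embryo, so the model is not limited to heart muscle.

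The lung grows from the ventral foregut as a branching epithelial tube that lies beside the heart. NKX2-1 is the transcription factor that marks the respiratory part of the foregut from its earliest stage. Within the tube, SOX2 marks the proximal epithelium that becomes airway and SOX9 marks the branching tips. Tip cells begin to make surfactant protein C, and later those of the alveolus make surfactant protein B. The epithelium sends Sonic hedgehog to the mesenchyme around it, and its cells are held together by E-cadherin, EPCAM and claudins. Working heart muscle, by contrast, is joined by N-cadherin.

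With 1 library per genotype there is no replicate check, no test of the genotypes and no p-value. Every 95% interval covers counting error alone, and PCR copies without molecular identifiers make even that a minimum. Reads on genes numbered 25120790 to 32669225 per library. Levels are in CPM, counts scaled by library size and edgeR's TMM factors, and a level of 3 reads equals 0.0968 CPM (wild type) or 0.113 CPM (H222P). Of the 10 cardiomyocyte markers, 10 were detected in both libraries, with a summed level of 26888 CPM in wild type and 14111 CPM in H222P. In bulk RNA, fewer cells of a type and less RNA per cell cannot be told apart.

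The 8 markers did not differ in a common direction. Sftpc, Sftpb and Nkx2-1 were at least 2-fold lower in the H222P library, Sox2 was at least 2-fold higher, and Shh, Cdh1, Epcam and Cldn6 lay within 1.5-fold. Among the 14716 genes that averaged 1 CPM or more, 4.35% were at least 2-fold lower and 5.95% at least 2-fold higher; among the 27300 genes with at least 1 read these shares were 14.8% and 17.4%. The markers were chosen on this contrast, so nothing is read from their count against these shares. Together the 8 genes held 2513 wild-type and 1818 H222P reads. That is 76.9 of every 1000000 reads on genes (exact Clopper-Pearson interval 73.9 to 80.0) against 72.4 (69.1 to 75.8), a log2 ratio of −0.24 (−0.33 to −0.15) after scaling. Of the 8, 7 averaged 1 CPM or more and Sftpb did not.

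**Figure D1:**
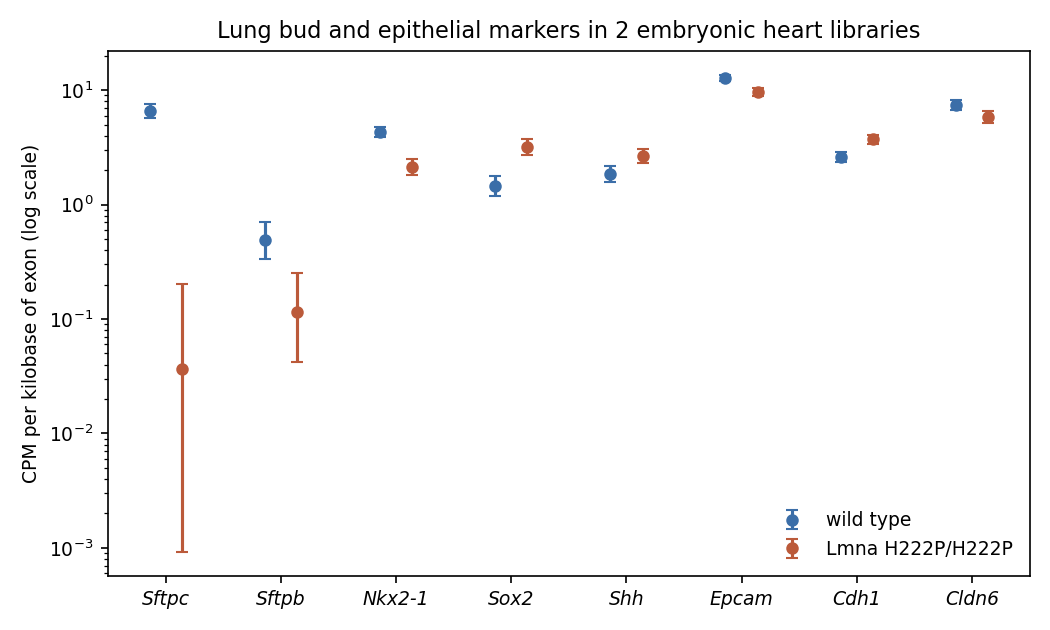
Level of each marker per kilobase of exon in the wild-type library (blue) and the Lmna H222P/H222P library (orange), as CPM per kilobase on a log axis, with exact 95% Poisson intervals of the read count as bars. Sftpc is at 6.59 in wild type and 0.0365 in H222P, while Epcam is the highest marker in both libraries, at 12.8 and 9.67.

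Sftpc encodes surfactant protein C, a small hydrophobic protein made by distal lung epithelium and used as its defining marker. The gene (ENSMUSG00000022097.4, chromosome 14, 70520949 to 70524081, minus strand, GRCm38) had 211 wild-type reads and 1 H222P read. These are 6.81 and 0.0378 CPM. The H222P level lies under that of 3 reads and the wild-type level far over it. The ratio was 121-fold lower and the log2 interval ran from −12.81 to −5.0, so its size is poorly fixed. With a prior count of 5 in place of 0.5 the log2 ratio moved from −6.91 to −4.94. No gene entry overlaps Sftpc, and no read fell on its opposite strand in either library.

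Sftpb encodes surfactant protein B, which lamellar bodies need to form (ENSMUSG00000056370.15, chromosome 6, 72304610 to 72314371, plus strand). It had 30 wild-type and 6 H222P reads, 0.968 and 0.227 CPM. It was 4.01-fold lower (1.75 to 12.6). Counted without regard to strand it had 32 and 11 reads, which moved the log2 ratio from −2.0 to −1.28.

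Nkx2-1 (ENSMUSG00000001496.15, chromosome 12, 56531958 to 56536908, minus strand) had 381 reads in wild type and 161 in H222P, 12.3 and 6.08 CPM. It was 2.02-fold lower (1.68 to 2.45), so the interval spans the 2-fold bound. Scaling by total counts put its log2 ratio at −0.86, inside that bound. Unlike Sftpc, Nkx2-1 was well above 3 reads in the H222P library. NKX2-1 also marks thyroid and parts of the forebrain.

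Sox2 (ENSMUSG00000074637.7, chromosome 3, 34650405 to 34652461, plus strand, a gene of 1 exon) moved the other way in counts, with 93 wild-type and 174 H222P reads. These are 3.0 and 6.57 CPM, 2.18-fold higher in H222P (1.69 to 2.85). Sox2 lies inside an intron of the noncoding gene Sox2ot on the same strand, with which it shares no exon bases. Sox2ot, looked up for this reason, had 3 and 12 reads.

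The 250 bases before the RefSeq start of Sftpb, Nkx2-1 and Sox2 are shown. They were picked because the first pair were lower and Sox2 was higher in the same library. The Sftpb promoter is also a known target of NKX2-1. The sequences are from RefSeq (GRCm38.p6), 5′ to 3′ on the strand of the gene, and capitals mark CAAG or its reverse complement CTTG, the short core that NKX2 proteins bind. The windows are chr6:72304360-72304609 (plus), chr12:56536909-56537158 (minus) and chr3:34649745-34649994 (plus). The Sox2 window does not reach the GENCODE start given above, 34650405, because the RefSeq start differs.
Sftpb: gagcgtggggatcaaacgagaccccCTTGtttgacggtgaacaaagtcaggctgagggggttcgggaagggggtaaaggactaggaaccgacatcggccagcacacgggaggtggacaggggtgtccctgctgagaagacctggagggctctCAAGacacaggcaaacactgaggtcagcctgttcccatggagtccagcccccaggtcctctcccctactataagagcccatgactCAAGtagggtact
Nkx2-1: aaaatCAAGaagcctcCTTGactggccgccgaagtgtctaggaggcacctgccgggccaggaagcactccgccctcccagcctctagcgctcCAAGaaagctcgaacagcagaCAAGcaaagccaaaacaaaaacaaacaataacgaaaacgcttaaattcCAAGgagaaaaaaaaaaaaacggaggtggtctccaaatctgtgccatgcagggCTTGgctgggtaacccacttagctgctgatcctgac
Sox2: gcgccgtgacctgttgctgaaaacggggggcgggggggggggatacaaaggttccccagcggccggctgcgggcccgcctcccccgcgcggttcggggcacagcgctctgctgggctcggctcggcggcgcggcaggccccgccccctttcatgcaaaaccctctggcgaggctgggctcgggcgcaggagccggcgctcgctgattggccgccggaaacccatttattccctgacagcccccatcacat
The core was found 3 times before Sftpb, 6 times before Nkx2-1 and 0 times before Sox2, and 86.6% of 32851 promoters of this length hold it, with a median of 2 matches. The longer form CAAGTG (or CACTTG) was in 0 of these windows and in 11.6% of all. Of the FOXA motifs searched on both strands, TGTTTGC (or GCAAACA) occurred 1 time before Sftpb and in 4.30% of promoters, and TGTTTAC (or GTAAACA) in 0 of these windows and in 3.17% of promoters. CAGGTG (or CACCTG) is the E-box that SNAI and ZEB repressors bind. It occurred 1 time in the Nkx2-1 window, 2 times in the Epcam window and 1 time in the Cldn6 window, and in 17.2% of promoters. The Cldn6 window (chr17:23679115-23679364) runs past the GENCODE start of that gene, 23679249, and its match lies past that start. TATAAA (or TTTATA) was in 0 of the 5 windows and in 12.4% of promoters. A match is a string of letters and not a bound site. The table matched 5 of the 8 genes; Sftpc, Cdh1 and Shh were not among them.

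Shh, the hedgehog ligand of foregut and lung epithelium (ENSMUSG00000002633.4, chromosome 5, 28456815 to 28467256, minus strand), had 163 wild-type and 200 H222P reads, 5.26 and 7.55 CPM. It was 1.43-fold higher in H222P (1.16 to 1.78). The antisense entries 9530036O11Rik and Gm26894 cover 446 and 361 of its 2847 exon bases, and without strand information its counts were 140 and 159.

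Epcam, a cell surface protein of most epithelia (ENSMUSG00000045394.9, chromosome 17, 87635979 to 87651129, plus strand), was the most abundant of the 8, with 870 and 562 reads. Its levels of 28.1 and 21.2 CPM made it 1.32-fold lower in H222P (1.19 to 1.47). Cldn6, a claudin of embryonic epithelia (ENSMUSG00000023906.3, chromosome 17, 23679249 to 23682446, plus strand), had 397 and 264 reads, 12.8 and 9.97 CPM, 1.28-fold lower (1.10 to 1.51). Its neighbour and relative Cldn9, looked up because of that, had 22 and 14 reads. Cdh1, which encodes E-cadherin (ENSMUSG00000000303.12, chromosome 8, 106603351 to 106670246, plus strand), had 368 and 450 reads, 11.9 and 17.0 CPM, and was 1.43-fold higher (1.24 to 1.65). The general epithelial genes therefore differed in sign, Epcam and Cldn6 being lower and Cdh1 higher, each by a small amount.

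**Figure D2:**
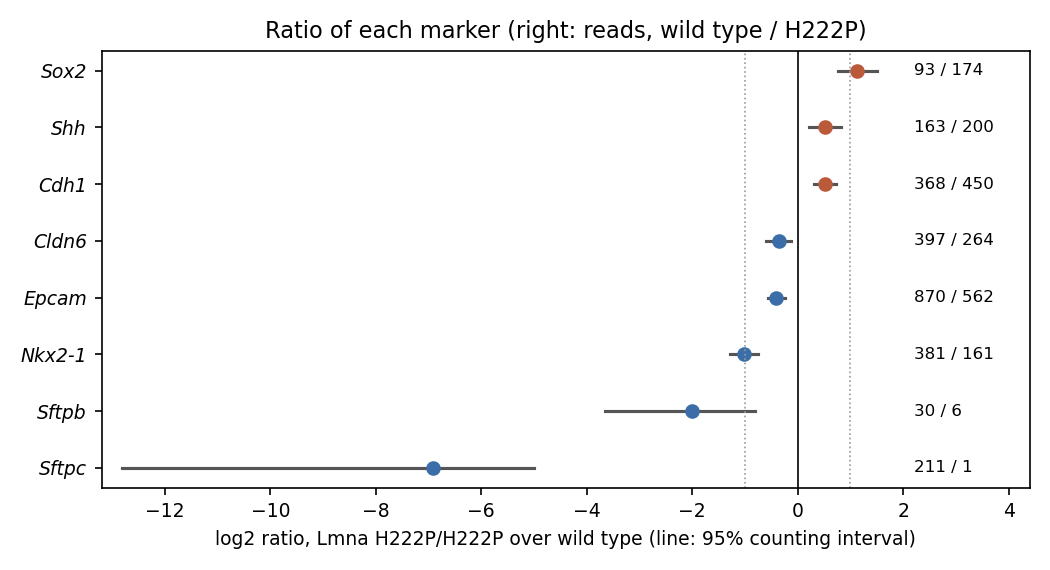
Log2 ratio of each marker, Lmna H222P/H222P over wild type, with its 95% counting interval as a line; dotted lines stand at 2-fold and the reads in each library are printed at the right. Sftpc, with 211 and 1 reads, lies far to the left with an interval from −12.81 to −5.0, and Sox2, Shh and Cdh1 lie to the right of 0.

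Levels can be compared between genes per kilobase of exon, as CPM per kilobase. In the wild-type library the order of these levels was Epcam (12.8), Cldn6 (7.44), Sftpc (6.59), Nkx2-1 (4.33), Cdh1 (2.60), Shh (1.85), Sox2 (1.46) and Sftpb (0.492). The counting intervals of neighbours overlapped for Cldn6 with Sftpc and for Shh with Sox2. In the H222P library the order was Epcam (9.67), Cldn6 (5.79), Cdh1 (3.71), Sox2 (3.19), Shh (2.65), Nkx2-1 (2.14), Sftpb (0.115) and Sftpc (0.0365). There the intervals overlapped between Cdh1 and Sox2, Sox2 and Shh, Shh and Nkx2-1, and Sftpb and Sftpc. Sftpc thus stood at rank 3 in wild type and at rank 8 in H222P. Per length, the level of Sox2 was 0.337 of that of Nkx2-1 in wild type and 1.49 times it in H222P, a pair picked after the counts were seen. Cldn6 stood at 0.582 of Epcam in wild type and 0.599 in H222P. Against Epcam, Cdh1 went from 0.203 in wild type to 0.384 in H222P, Shh from 0.144 to 0.274 and Nkx2-1 from 0.338 to 0.221. Sftpc was 1.52 times Nkx2-1 in wild type and 0.0171 of it in H222P. The level of Sox2 was 0.414 of that of Sox9 in wild type and 0.407 in H222P.

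The other genes of the surfactant system and alveolar epithelium were split. Of 14 list members beyond Sftpc and Sftpb, 7 averaged 1 CPM or more, and of these 3 were at least 1.5-fold lower, 2 higher and 2 between, with a median log2 ratio of −0.17. Over all genes, 11.4% were at least 1.5-fold lower and 10.9% higher, with a median of −0.01. Scaling by total counts, which moved the median of all genes to 0.15, put the list median at −0.01, and TMM on protein-coding genes, under which 8 members averaged 1 CPM or more, put it at 0.0021. Sftpa1, surfactant protein A, had 18 and 3 reads, a 4.52-fold lower level (1.5 to 27.2). Cldn18, the claudin of lung and stomach epithelium, had 173 and 37 reads and was 3.95-fold lower (2.79 to 5.87). Genes of the list that many other tissues use differed in direction. The lipid transporter gene Abca3 had 1115 and 1107 reads, 1.16-fold higher (1.07 to 1.26), and the phospholipid enzyme gene Lpcat1 had 1188 and 1625, 1.60-fold higher (1.48 to 1.73). Hopx, also a heart muscle gene, was 2.58-fold lower (2.46 to 2.72), and Cebpa, also a liver and myeloid gene, was 2.79-fold higher (2.30 to 3.39). Sftpd, surfactant protein D, had 0 reads in both libraries. The remaining members are named after their values were seen. Ctsh had 542 and 280 reads and was 1.65-fold lower (1.43 to 1.92). Ager had 75 and 57 reads, Muc1 26 and 25, and Aqp5 16 and 20. Napsa had 10 and 11 reads, Lamp3 16 and 5, and Slc34a2 2 and 1. From Ager to Slc34a2, each log2 interval spanned 0.

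Airway genes were scarce in both libraries. Of 13 list members beyond Sox2, 3 averaged 1 CPM or more, with 1 higher, 1 lower and 1 between. Scgb3a2, a secretoglobin of early airway epithelium that is a target of NKX2-1, had 48 wild-type and 3 H222P reads, 11.8-fold lower (4.41 to 68.6). Scgb1a1, the defining secretoglobin of mature club cells, and Bpifa1 had 0 reads in both. The basal cell factor Trp63 had 26 and 22 reads, so that its log2 ratio was −0.01 (−0.90 to 0.86). In the H222P library the neural and neural crest list was also higher in 5 of 11 members and lower in 1, with summed levels of 205 CPM in wild type and 227 CPM in H222P. Its defining glial gene Sox10 had 25 and 224 reads, and Sox1 and Olig2 had 0 in both. The part of such cells in the Sox2 value was not tested.

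Genes of the lung bud tip lay closer together. Of 10 members beyond Nkx2-1 and Shh, 10 averaged 1 CPM or more, 3 were at least 1.5-fold higher, 1 was lower and 6 lay between, with a median log2 ratio of 0.26. Sox9, the tip factor that cartilage, valve and glial precursors also express, had 452 and 859 reads and was 2.22-fold higher (1.98 to 2.50). Foxp2 and the FGF receptor gene Fgfr2 were 1.63-fold (1.5 to 1.76) and 1.53-fold higher (1.42 to 1.66). Wnt7b, a ligand made by lung epithelium, had 420 and 223 reads and was 1.61-fold lower (1.37 to 1.90). The most abundant member, Id2, was 1.21-fold higher (1.16 to 1.27).

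Foregut endoderm factors had 2 of 13 members higher by at least 1.5-fold, 2 lower and 9 between (median 0.27). Foxa1 and Foxa2, pioneer factors of lung, gut and liver endoderm that were singled out after their values were seen, had 203 and 223 reads and 128 and 132 reads. Their log2 ratios were 0.36 (0.08 to 0.64) and 0.27 (−0.09 to 0.63). Foxa3, of gut and liver, had 5 and 138 reads, on the log2 scale 4.88 higher (3.76 to 6.66). Irx2, a homeobox factor, was 2.36-fold lower (1.99 to 2.81). Gata6, which heart and endoderm both express, was the most abundant, at 169 and 134 CPM.

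Among 25 general epithelial genes beyond Epcam and Cdh1, 20 averaged 1 CPM or more; 5 were at least 1.5-fold higher, 2 lower and 13 between, with a median log2 ratio of −0.03 that turned positive with total-count scaling (0.13) and with the deeper library thinned (0.01). The keratin genes of simple epithelia Krt8 and Krt18 were 1.87-fold (1.72 to 2.05) and 1.69-fold higher (1.55 to 1.84), and Krt19 was 1.36-fold lower (1.25 to 1.49). Perp, of desmosomes, had 2997 and 915 reads and was 2.80-fold lower (2.60 to 3.02), while the tight junction gene Ocln was 2.22-fold higher (1.78 to 2.79). Esrp1, an epithelial splicing factor named after its value was seen, had 142 and 124 reads, so that its log2 ratio was 0.03 (−0.33 to 0.39).

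**Figure D3:**
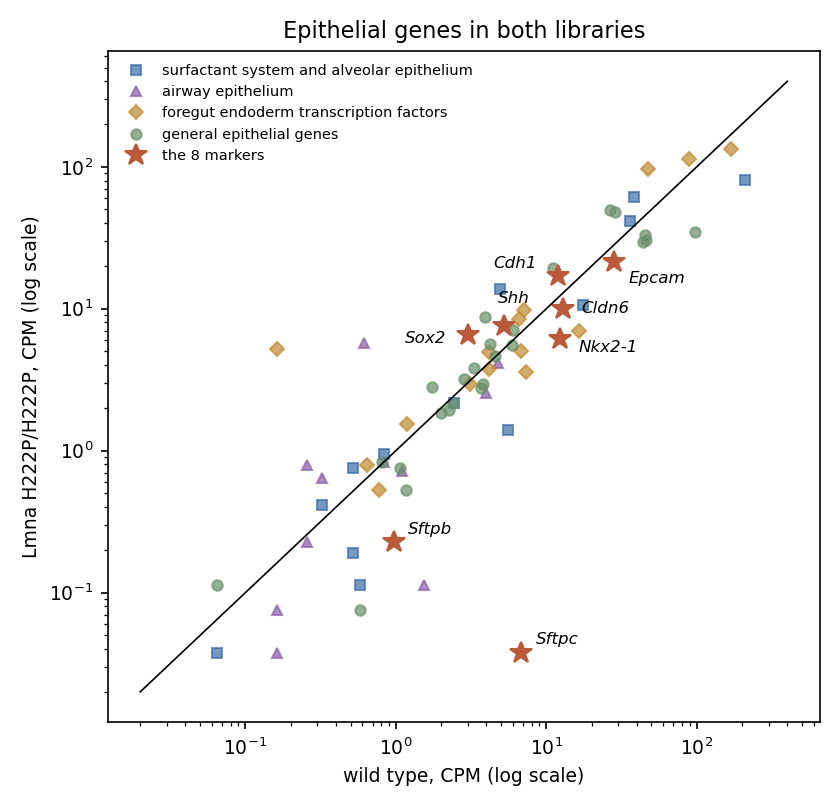
CPM in the wild-type library (x axis, log) against CPM in the H222P library (y axis, log) for the 8 markers (stars) and the other genes of 4 epithelial lists with at least 1 read in each library; the line marks equal levels. Epcam, Cdh1, Shh and Cldn6 lie near the line with most general epithelial genes, and Sftpc lies far below it at 6.81 and 0.0378 CPM.

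Heart and vessel tissue express their own claudins and cadherins. Of 17 claudins beyond Cldn6, 10 averaged 1 CPM or more, 3 of them at least 1.5-fold lower, 1 higher and 6 between (median −0.38). The lower genes were Cldn18, Cldn10 (3.51-fold, 1.99 to 6.99) and Cldn15 (3.43-fold, 2.49 to 4.88), and the higher was Cldn1 (1.64-fold, 1.36 to 1.99). Cldn10 and Cldn15 are named after their values were seen. Cldn12 was the most abundant, with 867 and 668 reads. Among 13 cadherin and catenin genes averaging 1 CPM or more, 3 were lower, 1 was higher and 9 lay between (median −0.30). Cdh2, which encodes the N-cadherin of heart muscle, had 439 and 328 CPM, against 11.9 and 17.0 CPM for Cdh1 in the same libraries. Ctnnb1, beta-catenin, was the most abundant of the list, with a log2 ratio of −0.07 (−0.10 to −0.05) that becomes positive under total counts, and Cdh13, T-cadherin, was 2.52-fold lower (2.29 to 2.78).

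The hedgehog pathway around Shh had 5 of 16 other members higher by at least 1.5-fold, 0 lower and 11 between, with a median log2 ratio of 0.26. The receptor gene Ptch1, which hedgehog signalling itself induces, had 1975 and 2707 reads and was 1.60-fold higher (1.51 to 1.70). Gli1, the other common readout of the pathway and named after its value was seen, had 255 and 397 reads, 1.82-fold higher (1.55 to 2.14). The transducer Smo had a log2 ratio of 0.09 (0.02 to 0.17), the most abundant member, the coreceptor gene Gas1, had −0.15 (−0.23 to −0.08), and the coreceptor gene Cdon was 1.47-fold lower (1.38 to 1.56). Ihh, the ligand of gut endoderm and cartilage, had 2 and 58 reads, so that its log2 ratio was 4.77 (3.17 to 8.16).

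Lung mesenchyme genes differed in direction among themselves. Of 13 members, 5 were at least 1.5-fold higher, 2 lower and 6 between (median 0.27). Foxf1, a hedgehog target of lung and gut mesenchyme, had 14.6 and 58.3 CPM, whereas Tbx4, a factor of lung mesenchyme, had 13.7 and 7.63 CPM. Wnt2, a ligand of lung mesenchyme named after its value was seen, had 331 and 182 reads and was 1.55-fold lower (1.29 to 1.87). Fgf10, the ligand that draws out the lung buds, also named in this way, had 146 and 212 reads and was 1.70-fold higher (1.37 to 2.11). The stomach, oesophagus and gut list was measured in the same libraries. Of its 13 genes, 3 averaged 1 CPM or more, and 7 had 0 reads in wild type and 5 in H222P. Barx1, a factor of stomach mesenchyme, had 8 wild-type and 1234 H222P reads, 170-fold higher (91.3 to 419), and Pdx1, of pancreas and duodenum, had 0 and 32 reads, which is at least 12.5-fold higher when a level of 3 reads stands for the wild-type library.

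In the SOX family 5 of 14 members beyond Sox2 were at least 1.5-fold higher, 3 lower and 6 between (median 0.10). Sox10 was 10.3-fold higher (6.92 to 16.5) and Sox17, of endothelium and endoderm, 2.05-fold lower (1.61 to 2.63). Sox4 was the most abundant, with 354 and 291 CPM. Sox3, the closest relative of Sox2 that was detected and named after its value was seen, had 274 and 250 reads, so that its log2 ratio was 0.09 (−0.16 to 0.35).

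Markers of other tissues differed between the libraries beside all of these values. Hepatoblast genes were at least 1.5-fold higher in 12 of 12 cases, with summed levels of 216 CPM in wild type and 6276 CPM in H222P, and erythroid genes in 11 of 12, with 462 and 2745 CPM. Hepatoblasts also express Cdh1, Krt8 and Krt18. Cardiomyocyte genes were at least 1.5-fold lower in 7 of 10 cases and higher in 0, and epicardial and mesothelial genes, a lining that makes Krt19, Krt8 and Krt18, lower in 2 of 9 and higher in 0 (summed levels 566 and 449 CPM). With hepatoblast, erythroid and globin genes left out of the scaling, the counts of markers past 2-fold were again 1 higher and 3 lower. The part of each of these tissues in the marker values was not tested, and genotype and what each heart sample contained cannot be told apart with 1 library per genotype.

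**Figure D4:**
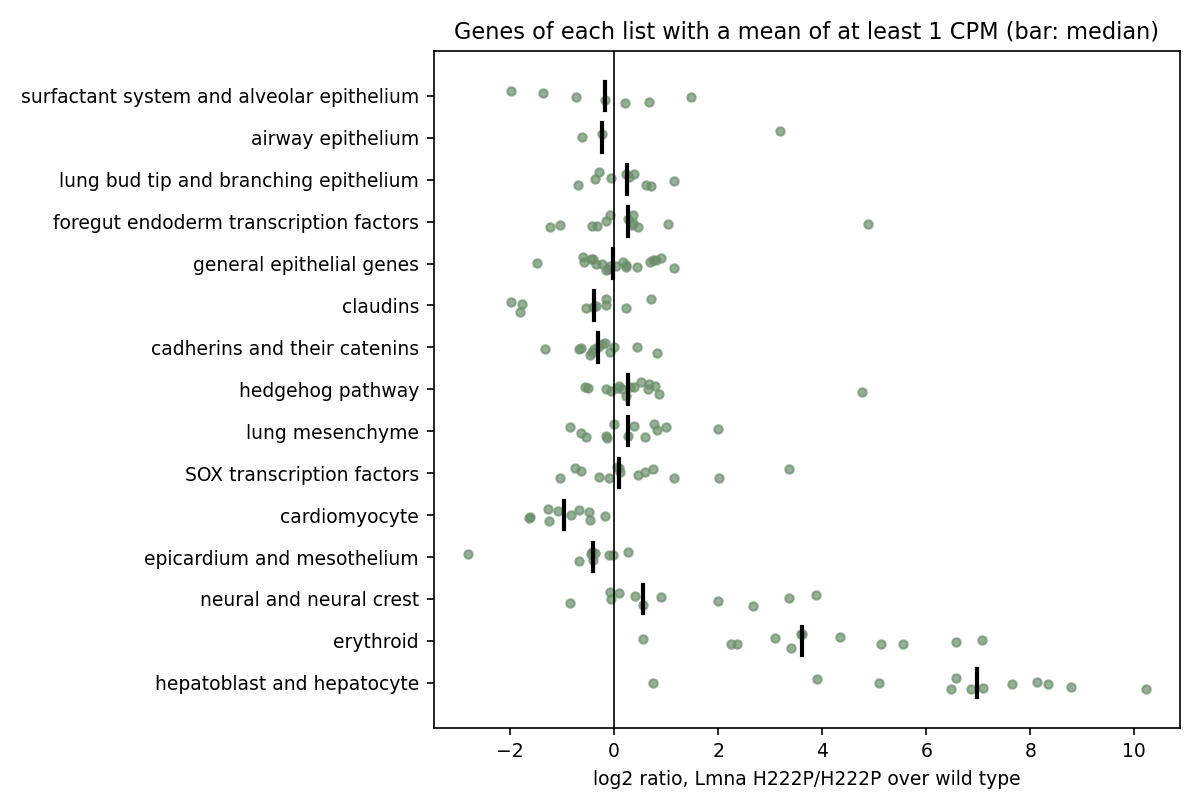
Log2 ratio, Lmna H222P/H222P over wild type, of list genes averaging 1 CPM or more, leaving out the 8 markers. Each point is a gene and the black bar is the list median. The thyroid, pharyngeal pouch and gut lists are not drawn, and the gut median is 2.70 over 3 genes. The median of the general epithelial list is −0.03, and those of the claudin, cadherin and hedgehog lists are −0.38, −0.30 and 0.26. Cardiomyocyte genes lie below 0, and the erythroid and hepatoblast medians stand at 3.61 and 6.97.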

How the data were processed

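RNA-seq libraries (2, 1 per genotype) were compared. The authors deposited raw, unnormalized read counts for each gene. The kit was from Zymo Research, per the labels. STAR, HTSeq, DESeq and mm10 are named in the submitters' processing notes, without version or role; for the annotation used in counting, the sources used here give none. Each table holds unstranded, forward and reverse counts; the reverse column held 19.3 and 20.5 times the forward reads and was used. The 4 summary entries (17.2% and 18.0% of reads) were left out. Reads that map to several places are not counted.

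Libraries were scaled by TMM (edgeR 4.0.16, R 4.3.3). Log2 ratios used a prior count of 0.5; 95% intervals are exact Clopper-Pearson intervals of the share of reads (Python 3.11.15, scipy 1.17.1), checked on simulated counts. Symbols were matched to GENCODE M21 (GRCm38, the assembly of mm10): 53244 of 55348 entries. Levels per kilobase used the merged exons of all isoforms.

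Members and 18 gene lists were chosen with earlier results of these data known. Named genes were the 8 members and, per list, the most abundant, the highest and the lowest with at least 10 reads, up to 3 more by abundance, and markers at 0 reads; others are said to be named after their values were seen. Of the genes this rule gave, 2 are not reported here. Results were recomputed with total counts, with size factors from DESeq2 1.42.0, with TMM on protein-coding genes or without hepatoblast, erythroid and globin genes, with a prior count of 5, unstranded counts, thinning of the deeper library, other CPM filters and a fold of 1.5.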

Additional observations from a re-analysis of the deposited data

How the results depend on the processing

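The sign of each of the 8 marker ratios was kept in all 7 alternatives that changed scaling, prior count, strand or depth. The log2 ratios ranged from −6.96 to −4.94 for Sftpc, −2.03 to −1.28 for Sftpb, −1.04 to −0.86 for Nkx2-1 and 1.10 to 1.28 for Sox2. They ranged from 0.40 to 0.67 for Shh, 0.49 to 0.67 for Cdh1, −0.43 to −0.25 for Epcam and −0.42 to −0.21 for Cldn6. Total counts put Shh and Cdh1 at 0.67, past 1.5-fold, and the Cldn6 interval at −0.44 to 0.02. The count of markers at least 2-fold higher was 1 throughout, and that at least 2-fold lower was 3, or 2 with total counts and with a prior count of 5. The log2 ratio of summed marker reads moved from −0.24 to −0.088 with total counts, which also moved the median of all genes from −0.01 to 0.15 and the genes past 2-fold from 876 higher and 640 lower (57.8% higher) to 1076 and 449 (70.6%). In the lists, 395 of 448 alternative values stayed within 1.5 times (counts) or the counting interval (sums) and 53 moved; 0 sums changed sign where the interval left out 0. The surfactant, general epithelial and thyroid medians changed sign between these settings. No paired analysis was possible because each genotype has 1 library. Depth limits Sftpc in H222P, where 1 read gives a wide interval, and Sftpb, at 6 reads.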

Other observations

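Other tissues that express Nkx2-1 or lie near the foregut were measured too. Of 8 thyroid genes beyond Nkx2-1, 2 averaged 1 CPM or more and 0 of these were 1.5-fold apart. Tg, thyroglobulin, the defining product of the gland and named after its value was seen, had 139 and 87 reads, so that its log2 ratio was −0.45 (−0.85 to −0.05). The thyroid factor Pax8 had 1 and 0 reads and Foxe1 had 0 and 3. Of 8 pharyngeal pouch, thymus and parathyroid genes, Foxn1, Gcm2 and Pth had 0 reads in both libraries, and Eya1, the most abundant, had 133 and 161 reads, 1.42-fold higher (1.12 to 1.80).

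By distance in log2 CPM over the 2 libraries, the protein-coding genes nearest to Sftpc were Gm14410 (141 and 1 reads), Rbm44 (91 and 1) and Gm14325 (412 and 2), at distances of 0.58, 1.21 and 1.21. Those nearest to Epcam were Prmt2, Fut11 and Mlh3, at 0.01, 0.03 and 0.03. With 2 libraries this says only that their levels and ratios are close.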
